A study of Mus musculus with 20 samples.

Results

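The genes described here are 9 CXC chemokines, Cxcl1, Cxcl2, Cxcl3, Cxcl5, Cxcl9, Cxcl10, Cxcl16, Pf4 and Ppbp, of 16790 genes listed in either of the single-cell RNA sequencing (scRNA-seq) tables. They were chosen by name, and the rule uses no measured value, although earlier results of these data were known when the genes were picked. All 9 are in the tumor table of 15333 genes and 8 are in the culture table of 15855 genes, where Cxcl9 is not listed. The study compared macrophages made from bone marrow (BM) B cells (B-MF) with macrophages made from BM monocytes (Mo-MF). Both were grown for a week in medium conditioned by 4T1.2 cells, a mouse breast cancer line, and no culture without that medium was used here. B-MF had 2 libraries with 10563 cells and Mo-MF had 2 libraries with 10235 cells. The tumor group had 4 libraries with 10885 cells, sorted as tumor-associated macrophages from 4T1.2 tumors of 4 mice. ATAC-seq, which maps open chromatin, was done in 12 libraries from mice without cancer, with 3 each of CSF1R+ BM, CSF1R- BM, CSF1R+ spleen and CSF1R- spleen cells. The labels call the ATAC-seq cells macrophages and the study's methods describe them as B-cell precursors. Mice were young females. The study's methods name BALB/cJ and μMT mice as hosts of 4T1.2 tumors and C57BL/CJ or BALB/CJ mice as sources of BM B cells, and which of them gave each library was not stated.

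CXC chemokines are small secreted proteins that steer white blood cells through receptors of the Cxcr family. Cxcl1, Cxcl2, Cxcl3, Cxcl5 and Ppbp act on Cxcr2 and draw neutrophils, whereas Cxcl9 and Cxcl10 are induced by interferons and draw activated T cells and NK cells through Cxcr3. Cxcl16 is made as a membrane protein, is the ligand of Cxcr6 and also binds oxidized lipoproteins. Pf4 (platelet factor 4) and Ppbp are best known as contents of platelet granules, and Pf4 is also made by some macrophages.

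Of the 9 genes, 8 lie on chromosome 5 and Cxcl16 lies on chromosome 11. On GRCm38, Cxcl5 (start site 90759360), Ppbp (90768518), Pf4 (90772435), Cxcl3 (90786103), Cxcl1 (90891241) and Cxcl2 (90903871) form one run on the plus strand, and Cxcl9 (92328079) and Cxcl10 (92348889) lie side by side on the minus strand. RefSeq promoters of GRCm38.p6 were at hand for 7 of the 9 genes, without Cxcl5 and Cxcl16. The 250 bases before each start were searched on both strands for GGGNNNTTCC, the core bound by NF-kB (a factor switched on by inflammatory signals), and for TTTCNNTTTC, the core of the interferon-stimulated response element. The first was found in 4 of the 7 promoters, against 4.65% of 32851 promoters, and the second in Cxcl10, against 2.98%. Sequences of these 4 promoters are shown because Cxcl1, Cxcl2 and Cxcl3 share a GGGAATTTCC block close to their starts, while Cxcl10 alone carries both cores. They are given 5′ to 3′ on the strand of the gene and end at the base before the RefSeq start, with matches in capitals, and the regions are chr5:90891095-90891244 (plus), chr5:90903749-90903898 (plus), chr5:90785951-90786100 (plus) and chr5:92348890-92349109 (minus).
Cxcl1: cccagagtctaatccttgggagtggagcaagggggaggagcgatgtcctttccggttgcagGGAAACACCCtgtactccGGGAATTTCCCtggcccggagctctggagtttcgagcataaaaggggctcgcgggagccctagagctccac
Cxcl2: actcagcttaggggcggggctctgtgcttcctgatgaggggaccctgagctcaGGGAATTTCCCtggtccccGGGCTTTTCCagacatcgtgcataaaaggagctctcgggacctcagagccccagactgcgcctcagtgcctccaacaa
Cxcl3: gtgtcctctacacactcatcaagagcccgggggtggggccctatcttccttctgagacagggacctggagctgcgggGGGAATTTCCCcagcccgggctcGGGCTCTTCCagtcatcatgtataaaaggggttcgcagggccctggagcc
Cxcl10: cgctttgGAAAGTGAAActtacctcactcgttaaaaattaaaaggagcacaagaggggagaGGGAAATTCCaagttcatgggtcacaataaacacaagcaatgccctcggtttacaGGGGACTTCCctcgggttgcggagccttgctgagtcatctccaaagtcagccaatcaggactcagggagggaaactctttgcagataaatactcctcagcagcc
The shared block reads GGGAATTTCC on the strand of the gene and overlaps a match on the other strand. It starts 71 bases before the RefSeq start in Cxcl1, 97 in Cxcl2 and 73 in Cxcl3. These RefSeq starts, 90891245, 90903899 and 90786101, differ from the start sites listed above, most for Cxcl2, where the printed sequence runs past the listed site. The distances therefore depend on the annotation. In Cxcl10 the response element lies 213 to 204 bases before the start on the opposite strand. Also searched were TTCNNNGAA, the interferon-gamma activated site, and TATAAA, the TATA box, which are not in capitals above. TTCNNNGAA was found in none of the 7 promoters, against 7.02% of 32851 promoters. TATAAA was found in Cxcl3, Cxcl9 and Ppbp, against 12.4%. A match describes the letters only and does not show that a factor bound there.

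Depth was read from the corrected counts, which the correction itself makes more even. Median corrected counts per cell ranged from 18350 to 19469 in the cultures and from 7651 to 8266 in the tumor libraries, and median genes detected per cell from 3400.5 to 3874 and from 1566 to 2148. The counts are unique transcripts read at the 3′ end, so they do not grow with gene length. Values in the 2 tables were corrected separately and are only set side by side. Cells were grouped without the chemokine genes into 15 clusters in the cultures and 13 in the tumor, and clusters were named from marker genes. In B-MF 99.7% and 99.8% of cells were monocyte/macrophage-like. In Mo-MF 89.7% and 90.6% were, and 10.3% and 9.43% were neutrophil-like. The tumor libraries, although sorted as macrophages, were 36.8%, 63.2%, 48.4% and 56.5% neutrophil-like and 60.6%, 32.7%, 45.5% and 37.7% monocyte/macrophage-like (libraries 2 to 5). Summed macrophage markers stood at 12.1 to 30.3 counts per cell in the tumor, at 257.2 and 245.7 in B-MF and at 566.8 and 557.0 in Mo-MF. Barcodes found in more than 1 library numbered 45 in the cultures and 13 in the tumor.

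The members made up 0.785% and 0.778% of all corrected counts in B-MF, 0.222% and 0.206% in Mo-MF, and 1.68% to 1.77% in the tumor libraries. A single gene dominated each total. Pf4 gave 95.6% and 95.9% of the members' counts in B-MF, against 76.6% and 76.0% in Mo-MF, whereas Cxcl2 gave 89.0% to 93.3% in the tumor.

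**Figure D1:**
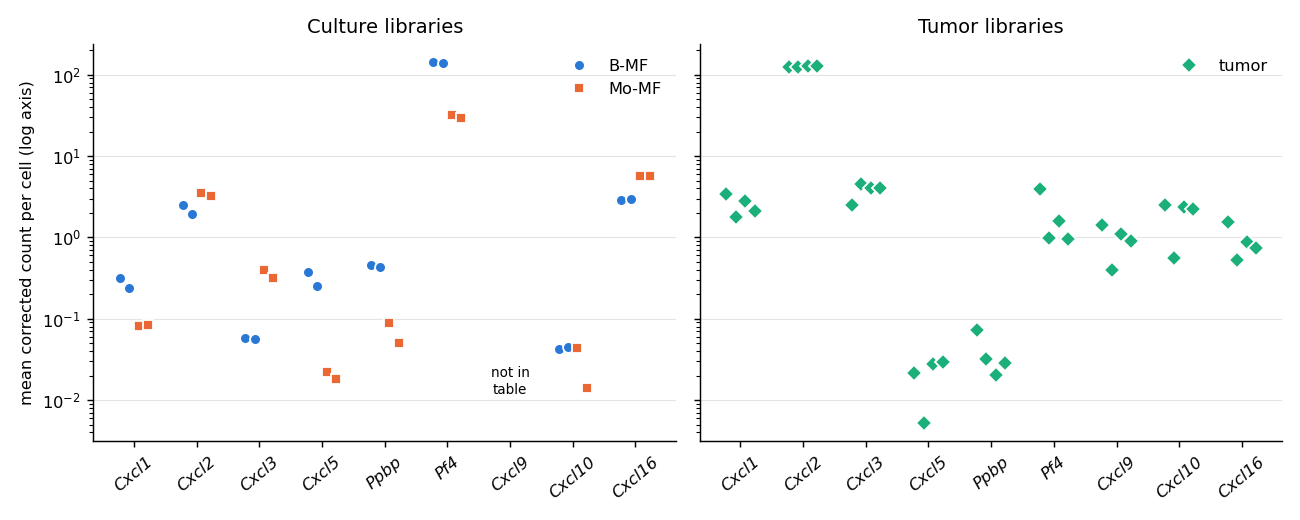
Mean corrected count per cell of each CXC chemokine in every library, on a log axis, for the culture table (left) and the separately corrected tumor table (right). Pf4 is the highest member in all 4 culture libraries and Cxcl2 in all 4 tumor libraries, and Cxcl9 is not in the culture table.

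The first comparison asked how B-MF and Mo-MF differ in these genes. Of the 8 listed members, 7 reached a mean of 0.1 over the 4 libraries and were tested. Pf4, Ppbp, Cxcl5 and Cxcl1 were higher in B-MF, and Cxcl16, Cxcl3 and Cxcl2 were higher in Mo-MF. All 7 were called by limma at an adjusted p under 0.05, and no tested member's libraries overlapped between the groups, as was so for 69.6% of all genes tested. Of 8633 genes tested, 44.6% were called, 26.5% as higher and 18.1% as lower in B-MF, so calls were common throughout. The highest adjusted p of the 7 was 7.74e-27 with limma's trended variance, which took the spread from the trend over all genes (infinite prior degrees of freedom) and left the gene's own spread out. With a single prior variance for all genes, the highest adjusted p by limma was 0.00213, and with a robust trended variance it was 0.144, for Cxcl2, the member whose call was then lost. The labels do not say that the 2 libraries of a group came from separate cultures. The spread between libraries may thus be technical. Trended p-values rest on its trend over all genes, not on a member's own spread.

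Pf4, the platelet chemokine, was the most abundant member in the cultures. Mean counts per cell were 143.2 and 139.6 in B-MF, against 32.3 and 29.6 in Mo-MF. The 2 groups were far apart, at 141.4 ± 2.5 against 31.0 ± 1.9 (SD, n = 2 each), or 4.56-fold. The log2 difference was 2.19 with a standard error (SE) of 0.030. With a single prior variance the SE was 0.059. Unless stated otherwise, SEs of culture differences are from the trended fit, which left the gene's own spread out. Nearly every cell had a count, 99.5% and 99.8% in B-MF, against 92.9% and 94.4% in Mo-MF. Part of that breadth was also seen in cells of another type, since 94.4% and 95.5% of the neutrophil-like cells of Mo-MF had a count of Pf4, at 20.1 and 20.9 per cell (median depth 17464 and 17841 corrected counts, against 19521 and 19414 in monocyte/macrophage-like cells). The share of cells therefore does not separate expression from free RNA in the cultures, and the difference between the groups was read from the level. Monocyte/macrophage-like cells of Mo-MF averaged 33.7 and 30.5 counts, and the 3 neutrophil-like cells of B-MF replicate 1 averaged 53.3. The part of free RNA in the level was not tested. Among monocyte/macrophage-like cells alone the log2 difference was 2.14. That class was made up of different clusters in the 2 groups, here and for the other members. The largest, cluster 0, had 2438 and 2292 B-MF cells but 7 and 4 Mo-MF cells, and cluster 1 had 1811 and 2185 against 10 and 9. Cluster 2 had 9 and 13 B-MF cells but 1464 and 1711 Mo-MF cells, cluster 3 had 2 and 2 against 1329 and 1422, and cluster 4 had 11 and 7 against 839 and 1015.

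Ppbp, which neighbours Pf4, was rarer and followed the same direction. Mean counts were 0.461 and 0.436 in B-MF, against 0.0898 and 0.0499 in Mo-MF, so that the log2 difference was 1.70 (SE 0.097). Cells with a count made up 10.0% and 9.63% of B-MF and 2.31% and 1.41% of Mo-MF. Ppbp was concentrated in few cells. The top 1% of cells held 54.0% and 53.0% of its counts in B-MF, against 6.35% and 6.14% for Pf4. A small cluster whose leading genes H2-Eb1 and H2-Aa present antigen, with 110 and 84 cells in the B-MF libraries, averaged 5.07 and 5.12 counts of Ppbp and held 23.1% and 18.5% of them.

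Platelet and megakaryocyte genes gave little to test. Of the 11 on that list 6 were in the culture table and 1 had enough counts to be tested, Gng11 (a G protein subunit) and it was lower in B-MF by a log2 value of 1.89. Summed over the 4 platelet markers listed in the culture table, the level was 0.057 and 0.044 counts per cell in B-MF, against 0.102 and 0.081 in Mo-MF. Of these, Treml1 was at 0.041 and 0.032 in B-MF, against 0.029 and 0.030 in Mo-MF, and Gp9 was at 0 in both B-MF libraries and at 0.0043 and 0.00056 in Mo-MF. The part of platelet RNA in the Pf4 and Ppbp values was not tested.

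Cxcl5, a neutrophil attractant, showed the largest ratio of the members in the cultures. Mean counts were 0.370 and 0.256 in B-MF, against 0.0221 and 0.0180 in Mo-MF, a 15.6-fold difference of the group means. On the log2 scale with 0.1 added, which shrinks differences of low genes, the difference was 1.77 (SE 0.092). The SE was 0.113 with a single prior variance. Cells with a count made up 11.6% and 9.43% of B-MF and 1.26% and 1.002% of Mo-MF. Within B-MF, a cluster led by the immediate early genes Ier3 and Egr1, with 34.6% and 41.0% of the cells, held 52.7% and 55.0% of Cxcl5 counts and 45.3% and 54.7% of Pf4 counts. Cxcl5 and Ppbp were often found in the same cells. Of B-MF cells with Cxcl5, 28.2% and 27.5% also had Ppbp, which was present in 10.0% and 9.63% of all B-MF cells.

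Cxcl1, another ligand of Cxcr2, was low in both groups. Mean counts were 0.318 and 0.239 in B-MF, against 0.0815 and 0.0829 in Mo-MF, with a log2 difference of 1.05 (SE 0.096). Of B-MF cells 10.1% and 8.47% had a count, against 4.48% and 4.92% of Mo-MF cells. Of the B-MF cells with Cxcl1, 55.8% and 60.1% also had Cxcl2.

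Cxcl2 and Cxcl3 were higher in Mo-MF when all cells of a library were averaged, and for both the order of the groups turned among monocyte/macrophage-like cells. Over all cells, mean Cxcl2 counts were 2.47 and 1.95 in B-MF, against 3.53 and 3.23 in Mo-MF, higher in Mo-MF by a log2 value of 0.60. The SE was 0.026 with the trended variance and 0.101 with a single prior variance, and the call was lost with a robust trended variance (limma, adjusted p = 0.144). The order of the groups for Cxcl2 also turned over all cells when the deposited natural log values were averaged instead of the counts. More B-MF than Mo-MF cells had a count, 32.7% and 30.2% against 20.9% and 20.5%. The neutrophil-like cells of Mo-MF averaged 28.9 and 28.4 counts of Cxcl2 and held 84.2% and 82.8% of it. Among monocyte/macrophage-like cells the means were 2.45 and 1.95 in B-MF, against 0.620 and 0.611 in Mo-MF. Cxcl2 was thus higher in B-MF there, by a log2 value of 1.68 (SE 0.039), and was called in this direction by limma, in a class held by clusters 0 and 1 in B-MF and by clusters 2, 3 and 4 in Mo-MF. This call used the trended variance only, which left the gene's own spread out. The single prior variance and the robust variance were not run on these cells.

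Cxcl3 counts came mostly from the same neutrophil-like cells. Over all cells the means were 0.0577 and 0.0563 in B-MF, against 0.398 and 0.320 in Mo-MF, higher in Mo-MF by a log2 value of 1.54 (SE 0.096). In Mo-MF, neutrophil-like cells averaged 3.59 and 3.15 counts and held 92.5% and 92.9% of Cxcl3. Among monocyte/macrophage-like cells the means were 0.0563 and 0.0564 in B-MF, against 0.0331 and 0.0252 in Mo-MF, higher in B-MF but below the filter, so that no test was made. The neutrophil markers moved with these values across libraries, at 1.39 and 1.003 summed counts per cell in B-MF, against 147.0 and 118.2 in Mo-MF.

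**Figure D2:**
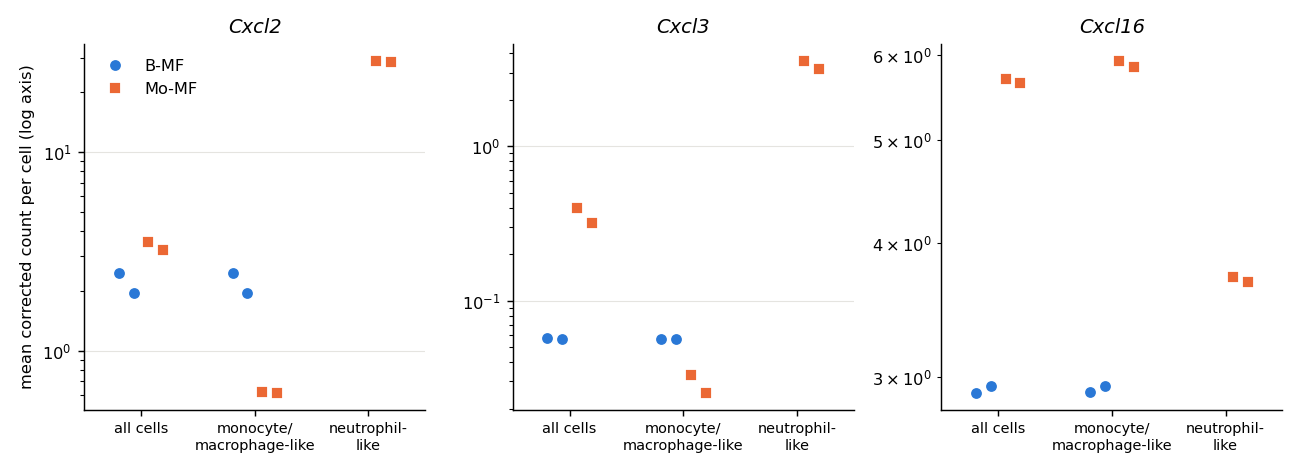
Mean corrected count per cell of Cxcl2, Cxcl3 and Cxcl16 in each culture library (log axes of different ranges), over all cells, over monocyte/macrophage-like cells and over neutrophil-like cells. B-MF replicate 1 held 3 neutrophil-like cells and replicate 2 held none, so B-MF points are not drawn there. For Cxcl2 and Cxcl3 the order of B-MF and Mo-MF turns between all cells and monocyte/macrophage-like cells (for Cxcl3 untested), and for Cxcl16 it does not.

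Cxcl16 was higher in Mo-MF, on the level per cell. Mean counts were 2.90 and 2.94 in B-MF, against 5.70 and 5.65 in Mo-MF, a 1.94-fold difference of the group means. The log2 difference of 0.94 (SE 0.023) was 0.99 among monocyte/macrophage-like cells, again between different clusters. Cells with a count made up 81.0% and 82.7% of B-MF and 94.4% and 94.9% of Mo-MF, and 67.0% and 68.4% against 85.6% and 85.7% after each cell was thinned to 10000 counts. Since 91.8% and 94.3% of the neutrophil-like cells of Mo-MF also had a count, these shares do not separate expression from free RNA. Those cells averaged 3.72 and 3.68 counts, against 5.93 and 5.85 in monocyte/macrophage-like cells of Mo-MF. The part of free RNA in the level was not tested either. The summed macrophage markers were also higher in Mo-MF, at 566.8 and 557.0 counts per cell, against 257.2 and 245.7 in B-MF. A sum does not show each marker, and the study reported Mrc1, which is among them, as higher in B-MF. The part of these markers in the Cxcl16 difference was not tested. Of the proteases that release Cxcl16 from the membrane, Adam17 was lower in B-MF by a log2 value of 0.16 (called by limma), and Adam10 was not called, with a log2 difference of 0.09 (B-MF minus Mo-MF).

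Cxcl10 was too low in the cultures to be tested. Mean counts were 0.0424 and 0.0449 in B-MF, against 0.0433 and 0.0141 in Mo-MF, and the groups overlapped. Few cells carried it. Of B-MF cells 42 and 31 had a count, which is 0.802% (exact 95% binomial interval 0.579% to 1.08%) and 0.582% (0.396% to 0.825%), and of Mo-MF cells 16 and 19. These intervals cover counting error only. In B-MF a cluster led by the interferon response genes Rsad2 and Ifit1, with 39 and 34 cells, held 50.9% and 86.6% of Cxcl10 counts. In Mo-MF replicate 1, 4 cells of a monocyte cluster held 88.6% of the counts, whereas in replicate 2 neutrophil-like cells held 84.2%.

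Genes around the chemokines were read from lists. Of 17 NF-kB pathway and inflammatory genes, 16 were tested, of which 11 were called higher and 2 lower in B-MF. Over all genes tested, 26.5% were called higher and 18.1% lower. The median log2 difference of the list was 0.27, against 0.02 over all genes tested. The largest differences among them were Zfp36 (an mRNA decay factor, log2 difference 0.996), Cd14 (the lipopolysaccharide co-receptor, 0.95), Tlr2 (a receptor for bacterial lipoproteins, 0.82) and Nfkbiz (an NF-kB co-factor, 0.67), all higher in B-MF. Of 15 interferon response genes, 14 were tested, of which 3 were called higher and 9 lower in B-MF (26.5% and 18.1% over all genes), with a median of -0.28. The antiviral genes Irf7 (-1.47), Rsad2 (-1.16), Ifit3 (-1.05) and Ifit1 (-0.95) had the largest log2 differences there, all lower in B-MF. Of 8 receptors 2 were tested and both were lower in B-MF. Cxcr2, the receptor of the neutrophil attractants, averaged 0.0057 and 0.0019 counts in B-MF, against 0.947 and 0.764 in Mo-MF. Cells with Cxcr2 were 11.4% and 10.2% of Mo-MF, beside 10.3% and 9.43% of neutrophil-like cells, whose part in the difference was not tested. Cxcr4, the receptor of Cxcl12, averaged 1.90 and 1.85 against 2.80 and 2.69. Of 6 other CXC ligands 1 was tested, Cxcl14, at 1.27 and 1.09 counts in B-MF, against 0.721 and 0.702 in Mo-MF, and it was higher in B-MF by a log2 value of 0.65.

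The tumor libraries showed which cells carried each chemokine. Their numbers, 2 to 5, could not be matched to the replicate numbers of the labels, and values are given in the order of libraries 2, 3, 4 and 5. Neutrophil-like cells were higher than monocyte/macrophage-like cells in Cxcl2 and Cxcl3 in 4 of 4 libraries, and lower in Cxcl1, Cxcl9, Cxcl10, Cxcl16 and Pf4 in 4 of 4. In the exact two-sided sign-flip test, 2 of the 16 sign patterns of 4 libraries were as extreme for each of the 7 tested members. This is the smallest p the test can give, before and after adjustment over the 7, so the design could not call any of them at 0.05. Cxcl5 and Ppbp were under a mean of 0.1 in both classes and were not tested. The share of all tumor genes with the same sign in 4 of 4 libraries was not computed. The counts of members are therefore not read as particular to these genes.

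**Figure D3:**
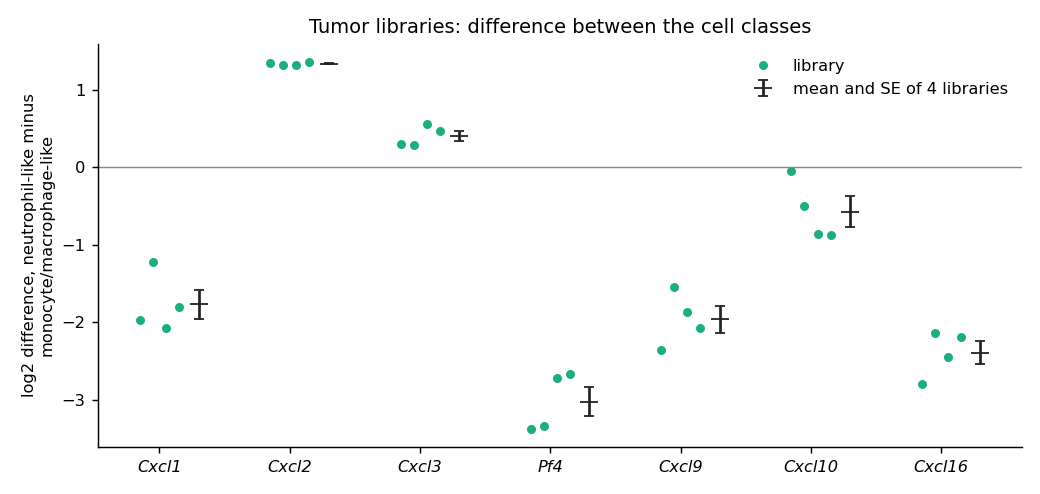
Log2 difference of the mean corrected count (0.1 added) between neutrophil-like and monocyte/macrophage-like tumor cells, one point per library (libraries 2 to 5 from left to right) with the mean and SE of 4 libraries. Cxcl2 and Cxcl3 lie above 0 in all 4 libraries and the other 5 tested members below 0, with Cxcl10 of library 2 closest to 0.

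Cxcl2 was abundant in the tumor. Mean counts over all cells were 124.4, 123.9, 128.0 and 129.4, and 89.7%, 92.1%, 92.0% and 92.0% of cells had a count. Neutrophil-like cells averaged 205.4, 161.7, 191.4 and 181.3 counts, and monocyte/macrophage-like cells 80.4, 64.7, 76.2 and 70.7. The log2 difference was 1.34 (SE 0.009, n = 4). Over all libraries 73.1% of Cxcl2 counts were in neutrophil-like cells. B-like cells, with a median of 7523 corrected counts, also had Cxcl2 in 70.7% of cells, at 10.9 counts per cell, and T/NK-like cells in 43.1%, at 3.36. Cells not known as its source thus carried it too, and the share of cells with Cxcl2 is not read as expression. The level was highest in a neutrophil-like cluster led by the interferon response genes Ifit1 and Isg15, at 251.8 counts per cell over 1595 cells.

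Cxcl3 was spread over both classes. Mean counts over all cells were 2.48, 4.55, 4.003 and 4.04, lowest in library 2. Neutrophil-like cells averaged 2.90, 5.04, 5.02 and 4.83 and monocyte/macrophage-like cells 2.33, 4.10, 3.37 and 3.44, a log2 difference of 0.41 (SE 0.066, n = 4). Almost all cells with Cxcl3 had Cxcl2, from 99.2% to 99.6% per library, but so did 89.7% to 92.1% of all cells. The reverse share was 29.2% to 35.3%, beside 26.4% to 32.7% of all cells with Cxcl3. A count of Cxcl3 was seen in 34.2% of neutrophil-like, 28.4% of monocyte/macrophage-like, 4.55% of B-like and 1.39% of T/NK-like cells.

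Cxcl1 had another main source. Mean counts over all cells were 3.44, 1.80, 2.84 and 2.14. Neutrophil-like cells averaged 1.19, 1.25, 1.11 and 1.08 counts and monocyte/macrophage-like cells 4.94, 3.05, 4.98 and 4.02, a log2 difference of -1.77 (SE 0.189, n = 4). Within the latter class, a monocyte cluster led by Arg1 (arginase) and Thbs1 (thrombospondin) held 73.0%, 49.6%, 63.4% and 62.9% of all Cxcl1 counts. That cluster made up 2144 cells and had Cxcl1 in 44.96% of them, against 1.65% of B-like cells. It also held 84.7% of Cxcl5 and 79.1% of Ppbp counts, both of which were rare. Cells with Cxcl5 numbered 18, 5, 10 and 8 and cells with Ppbp 49, 15, 18 and 15 in the 4 libraries. Of 242 B-like cells none had a count of Cxcl5 or Ppbp, and a limit of 3 counts allows a share of cells with a count of up to 1.24%.

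Pf4 in the tumor came mostly from 2 clusters of the monocyte/macrophage-like class. Mean counts over all cells were 3.90, 0.983, 1.57 and 0.9503, with library 2 far above the others. Monocyte/macrophage-like cells averaged 6.12, 2.65, 3.03 and 2.13 counts and neutrophil-like cells 0.501, 0.173, 0.375 and 0.253, a log2 difference of -3.02 (SE 0.192, n = 4). A macrophage cluster led by complement C1q genes and Ccl8 averaged 13.4, 10.5, 11.1 and 9.34 counts of Pf4 and held 44.97%, 26.8%, 41.5% and 41.3% of them. The Arg1 and Thbs1 cluster held 43.0%, 55.2%, 40.9% and 35.5%. Library 2, which had the highest Pf4 level, gave 416 of the 740 cells of the C1q cluster. The part of these cells in the difference between libraries was not tested. Of the cells with Ppbp, 66.7% to 91.8% also had Pf4.

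Cxcl9 and Cxcl10, which share the receptor Cxcr3, had partly different sources. Cxcl9 averaged 1.42, 0.402, 1.11 and 0.904 counts over all cells and Cxcl10 2.53, 0.565, 2.35 and 2.23, both lowest in library 3. For Cxcl9, monocyte/macrophage-like cells averaged 2.12, 0.804, 1.93 and 1.81 counts and neutrophil-like cells 0.334, 0.209, 0.455 and 0.354, a log2 difference of -1.96 (SE 0.170, n = 4). For Cxcl10 the means were 2.62, 0.751, 3.27 and 3.25 against 2.54, 0.501, 1.75 and 1.74, a smaller log2 difference of -0.57 (SE 0.195, n = 4). A cluster of the monocyte/macrophage-like class, whose leading genes were H2-Eb1 and H2-Ab1 (MHC class II), held 49.2%, 50.6%, 49.7% and 40.9% of Cxcl9 counts and 24.0%, 15.8%, 19.9% and 14.2% of Cxcl10 counts. None of its 10 leading genes was a macrophage marker, and at a resolution of 1 a cluster of 231 cells led by Timd4 and H2-Eb1, both leading genes here too, was named dendritic-like. The neutrophil-like cluster led by Ifit1 and Isg15 held 28.2%, 28.5%, 23.3% and 29.0% of Cxcl10 and 2.14%, 6.33%, 5.88% and 4.17% of Cxcl9. Of cells with Cxcl9, 39.8%, 15.6%, 32.6% and 33.2% also had Cxcl10, and of cells with Cxcl10, 26.1%, 14.6%, 28.2% and 20.7% also had Cxcl9. In B-like cells 2.89% had Cxcl9 and 2.48% had Cxcl10, against 16.6% and 22.9% of monocyte/macrophage-like cells.

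Cxcl16 was most abundant in the dendritic-like cells of the tumor. This cluster, led by Ccr7 and Fscn1, which mark mature dendritic cells, had 29, 24, 22 and 31 cells. They averaged 7.90, 7.21, 8.82 and 8.32 counts of Cxcl16, and 28 of 29, 23 of 24, 22 of 22 and 31 of 31 had a count. Over all cells the means were 1.53, 0.529, 0.886 and 0.737. Monocyte/macrophage-like cells averaged 2.24, 1.04, 1.54 and 1.38 and neutrophil-like cells 0.238, 0.160, 0.199 and 0.225, a log2 difference of -2.39 (SE 0.151, n = 4). As a share of all counts, 80.2% of Cxcl16 was in monocyte/macrophage-like cells and 8.21% in dendritic-like cells, which were 0.974% of the cells. The size of this class depended on the clustering, since 106 cells were dendritic-like here, 312 at a Leiden resolution of 0.25, and 106 and 231 in separate clusters at a resolution of 1. In B-like cells 3.72% had a count.

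**Figure D4:**
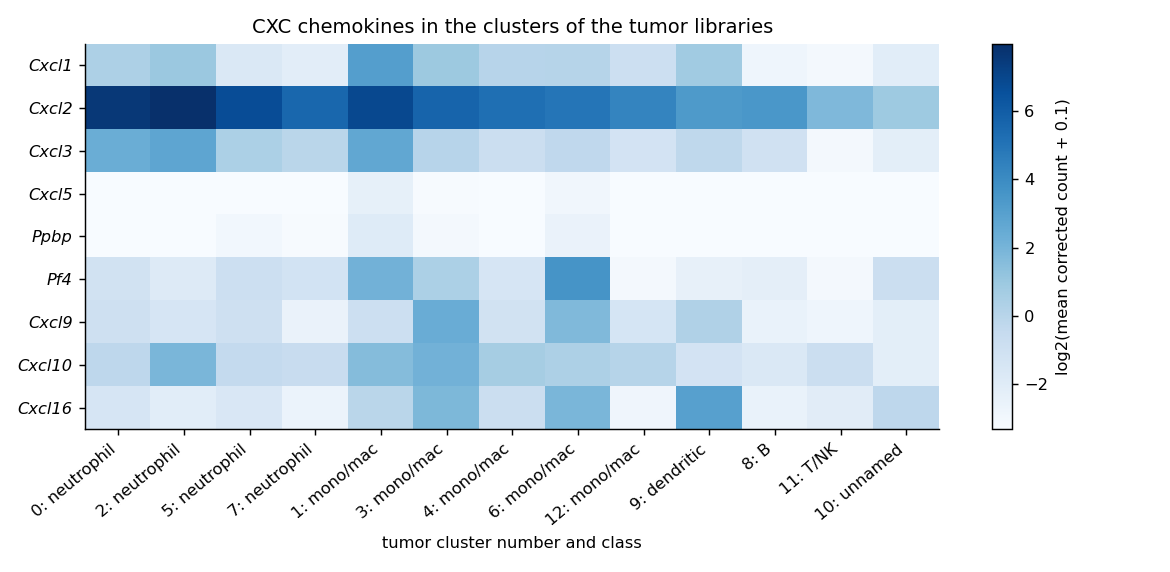
Level of each CXC chemokine in the 13 tumor clusters, as log2 of the mean corrected count plus 0.1 over all 4 libraries, with clusters ordered by class. Cxcl2 is highest in neutrophil-like cluster 2 (Ifit1 and Isg15), Cxcl1 is highest in cluster 1 (Arg1 and Thbs1), Cxcl9 in clusters 3 (MHC class II) and 6 (C1q), Pf4 in cluster 6 and Cxcl16 in cluster 9 (dendritic-like).

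Among the receptors in the tumor, Cxcr2 averaged 1.30, 2.27, 1.89 and 2.22 counts per cell, with a count in 31.7% to 51.0% of cells. The receptors of Cxcl9, Cxcl10 and Cxcl16 were rare, with Cxcr3 in 0.314% to 0.628% of cells and Cxcr6 in 0.0863% to 0.545%.

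Genes with patterns most like a member were sought over the 10 tumor clusters in which no library had fewer than 10 cells, by Pearson's r of the log2 cluster means. This is a description, since the clusters share their libraries. Nearest to Cxcl2 were Nlrp3 (the inflammasome sensor, r = 0.984), Smox (0.984) and Irf9 (0.982). For Cxcl1 they were Map2k1 (r = 0.949), Nampt (0.935) and Ets1 (0.919), for Cxcl3 Egln3 (0.947), Rgcc (0.946) and Ero1l (0.931), and for Cxcl9 Itgax (the integrin CD11c, 0.932), Aif1 (0.923) and Dnase1l3 (0.908). For Cxcl10 they were Slfn8 (r = 0.941), Irf7 (0.913) and Jaml (0.912), for Cxcl16 Pla2g16 (0.977), Selenom (0.974) and Bcl2a1a (0.962), and for Pf4 Mmp13 (0.9496), Ccl7 (0.926) and Sash1 (0.922). In the cultures 3 clusters met the cell number, too few for such a measure.

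ATAC-seq of the B-cell precursors was read for open chromatin at the start sites. A peak within 1000 bases of the start was found for Cxcl10 in 6 of 6 BM and 6 of 6 spleen libraries, and for Cxcl2 in 6 of 6 BM libraries and 1 of 6 spleen libraries. Cxcl3 and Pf4 each had one in 3 of 6 BM libraries and in none of the 6 spleen libraries. No peak was found within this window for Cxcl1, Cxcl5, Cxcl9, Cxcl16 or Ppbp in any of the 12 libraries. Over all protein-coding genes, 49.7% to 58.4% had a peak at the start, and of the members 1 to 4 of 9 had one per library. The spleen libraries also had fewer peaks, 43407 to 50392 against 65832 to 76530 in BM, and the part of that in the missing spleen peaks was not tested.

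The peak at Cxcl2 had the highest fold enrichment of the members in each BM library. Its fold enrichment in BM was 9.03, 8.85 and 11.6 in the CSF1R+ libraries and 12.5, 11.1 and 15.5 in the CSF1R- libraries, and the values of these groups overlapped. The single spleen peak, in a CSF1R+ library, had a fold enrichment of 5.70. Summits of the Cxcl2 peaks were not all at the same place. They lay at position -803 from the start in BM CSF1R+ replicate 2 and at -811 in this spleen library. In the remaining BM libraries they lay between -312 and -228. At Cxcl10 the fold enrichment was 5.12 to 7.55 in BM CSF1R+, 6.32 to 9.79 in BM CSF1R-, 5.25 to 6.11 in spleen CSF1R+ and 4.72 to 6.22 in spleen CSF1R- libraries. The CSF1R+ and CSF1R- values overlapped within each tissue, whereas the BM CSF1R- values lay above those of both spleen groups, a difference that was not tested. The summits at Cxcl10 lay between positions -75 and -22 from the start, inside the sequence shown above, whereas those of the Pf4 peaks lay between -858 and -785. With a window of 5000 bases, Pf4 had a peak in 6 of 6 BM libraries, in 3 of 3 spleen CSF1R+ libraries and in 0 of 3 spleen CSF1R- libraries. Cxcl3 then had one in 6 of 6 BM libraries and Ppbp in 3 of 6 BM libraries. The start sites of Ppbp (90768518) and Pf4 (90772435) lie within 5000 bases of each other. The Ppbp peaks were in the BM libraries with a Pf4 peak within 1000 bases, and it was the same peak, counted for both genes.

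**Figure D5:**
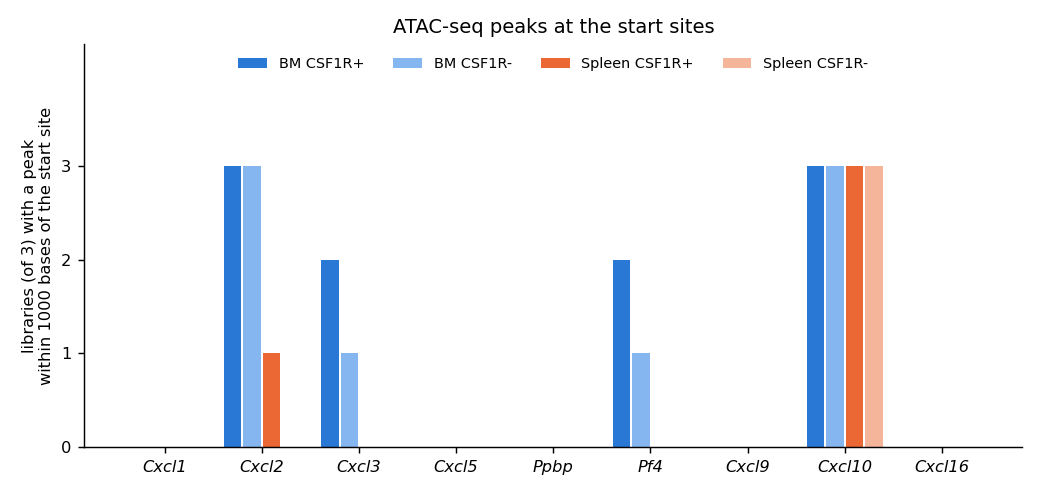
Number of ATAC-seq libraries, of 3 in each group, with a peak within 1000 bases of the start site of each CXC chemokine. Cxcl10 has a peak in all 12 libraries, Cxcl2 in all 6 BM libraries and in 1 spleen library, Cxcl3 and Pf4 in BM libraries only, and the other 5 genes have none.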

How the data were processed

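The authors used Cell Ranger to count scRNA-seq transcripts and SCTransform to correct the counts. The deposited values are natural logs of the corrected count plus 1. Each value gave a whole count within 1e-06 after conversion. For ATAC-seq the authors aligned reads to mm10 with BWA and called peaks in each library with MACS2. The deposited peak lists give a fold enrichment and −log10 p-values and q-values, and the depth of each library was not used. No column of per-sample values was left unmatched, but the tumor libraries could not be tied to single samples.

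Cells were clustered without chemokine genes (2000 variable genes, 30 components, Leiden resolution 0.5). Cluster names needed at least 3 markers present in 10% of cells, a rule set after the clusters were seen. Doublets were not called. Library means were compared as log2(mean + 0.1) with limma 3.58.1 in R 4.3.3, trended variance and Benjamini-Hochberg adjustment, leaving out genes whose mean was below 0.1. The same fit was run on simulated data drawn with each gene's own spread, and its outcome is not used here. Tumor classes were compared by an exact sign-flip test over libraries. Gene positions are from GENCODE for GRCm38. All members and at most 4 called genes of each list, by size of the difference, were named, with the 3 genes most like a member. The members and lists were chosen with earlier results of these data known. Alternatives used another pseudocount, filter, scaling, cell selection, resolution, peak window or set of libraries.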

Additional observations from a re-analysis of the deposited data

Results flagged for a closer look

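Of 36 sets of 4 tumor library values, 4 held a library far from the others by Dixon's test at the 95% level, which chance gives in about 1 of 20 sets. Library 2 had the lowest share of cells with Cxcl2, 89.7%, and the highest share with Pf4, 24.4%. It also had the lowest Cxcl3 level in neutrophil-like cells, at 2.90 counts per cell. Library 3 had the lowest Cxcl10 level, at 0.565 counts per cell, against 2.23 to 2.53 in the others. Library 2 also had the lowest share of neutrophil-like cells, 36.8%, and library 3 the highest, 63.2%. The part of these shares in the values over all cells was not tested. The Cxcl3 value is a mean within 1 class. Cxcl10 was lowest in library 3 within both classes, at 0.501 counts in neutrophil-like cells (1.74 to 2.54 in the others) and 0.751 in monocyte/macrophage-like cells (2.62 to 3.27).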

How the results depend on the processing

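Cxcl2 was the member whose tested difference turned with the processing. Its log2 difference (B-MF minus Mo-MF) was -0.60, turned to 1.68 with monocyte/macrophage-like cells only and to 0.18 with the mean of the deposited natural log values, and stayed at -0.60 without a call under a robust trended variance (limma, adjusted p = 0.144), a setting chosen after seeing the data. Cxcl3 fell below the filter with monocyte/macrophage-like cells only, where its means were higher in B-MF. The other 5 tested members kept their direction and call under every alternative run. Without a filter, Cxcl10 could be tested and had a log2 difference of 0.17 (limma, adjusted p = 0.0632). Genes called lower in B-MF rose from 1561 to 2750 without a filter, since 15855 genes were then tested. With one library left out, genes called higher ranged from 1359 (without Mo-MF replicate 2) to 3886 (without B-MF replicate 2), against 2292 with all. Those called lower ranged from 850 (without Mo-MF replicate 1) to 2944 (without B-MF replicate 1). They were 1369 higher without Mo-MF replicate 1 and 932 lower without Mo-MF replicate 2. All 7 members stayed called in each of these fits, where the lone library of a group is assumed to vary like the others. Scaling libraries to the same total gave 2629 higher and 1711 lower.

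With the replicate number as a block, the replicate block fit called 2468 genes higher and 1694 lower, and all 7 members stayed called. The correlation of deviations between same-numbered libraries was 0.126 over 8633 genes, and the 2 pairs share only a number. In the tumor, the direction of the 7 tested members held under every alternative run. Peaks at the start sites numbered 25 of 108 gene and library pairs, 37 with a window of 5000 bases and 25 with a −log10 q of at least 5. Of 61 recomputed shares of cells or counts, 16 moved by more than the spread between libraries, all of them shares of cells with a count under thinning. The size for low members depended on the scale, since the difference of Cxcl5 ranged from 0.16 to 3.41 over the alternatives. The depth of the ATAC-seq libraries was not known, and each culture group had 2 libraries.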
